A study of Mus musculus with 19 samples.

Results

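The cortex of 4 male APP23 mice fed high fat diet (HFD) was compared with that of 4 male APP23 mice fed normal diet (ND). These are the 8 libraries labelled male among the 19 of the series, the others being from 5 HFD and 6 ND females, and each library came from 1 mouse. All 8 males were hemizygous APP23 on the C57Bl6 background. They carried a transgene for a human APP isoform with the familial Swedish mutation, which the Thy1 promoter expresses in neurons and which causes amyloid plaques with age. HFD was a Western diet with 40% of its calories from fat, given as milk fat and corn oil, and ND was a Lab Diet chow. Mice were assigned to a diet at random at a mean age of 11.7 months and kept on it for 3 months, and their behaviour was then assessed at a mean age of 14.7 months. RNA of the dissected cortex of 1 hemisphere was sequenced from mRNA libraries, and the comparison asks what HFD does to the transcriptome of males that are already forming plaques. No male without the transgene was analysed here. The study describes more HFD males for the sequencing than are used here, and any further male was not analysed here.

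Microglia are the resident macrophages of the brain. Around plaques they lower some of their homeostatic genes and raise a set of receptor, lysosomal and lipid-handling genes, many of which need the receptor TREM2 and its adaptor TYROBP. Type I interferon acts through transcription factors that bind a short promoter element called ISRE, and it raises antiviral genes in microglia of aged and plaque-bearing brains.

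Library totals were 10207218 to 10844280 reads in HFD males and 9308206 to 10264393 reads in ND males, and cortical neuron genes such as Slc17a7 (988 to 1711 CPM) and Neurod6 (41.8 to 111 CPM) were read in all 8. CPM are counts set relative to the library total after TMM scaling, in which a factor per library sets the typical gene equal between libraries. Genes of tissues that border the cortex varied between the mice, and several of these lists leaned lower on HFD. The summed level of 12 olfactory bulb genes was 629.8, 254.8, 388.9 and 693.2 CPM in HFD males A1095, F1065, F1129 and F1145, against 871.7, 482.5, 581.4 and 875.2 CPM in ND males F1079, F1080, F1128 and F1131, and the mice are given in this order throughout. For 18 genes of septum, basal forebrain and hypothalamus it was 104.0, 31.02, 82.86 and 84.65 CPM in HFD males, against 207.9, 148.2, 99.78 and 95.14 CPM in ND males. These sums include list genes too low to be tested. Of the genes tested, 0 of 11 of olfactory bulb, 0 of 12 of the septum list and 0 of 6 of choroid plexus had a positive log2 fold change of HFD over ND. Their medians were -0.81, -0.93 and -0.86. For striatum, thalamus and hippocampus 3 of 18, 2 of 10 and 3 of 5 were positive, with medians of -0.18, -0.21 and 0.05. HFD male F1065 was lowest of all 8 on both lists, and ND male F1079 was highest of all 8 on the septum list. The same 2 mice lay at the ends of the first principal component (36.3% of the variance of 14293 genes). Results are therefore also given without both of them, as an alternative chosen after seeing the data. Whether dissection played a part in the results was not tested.

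**Figure D1:**
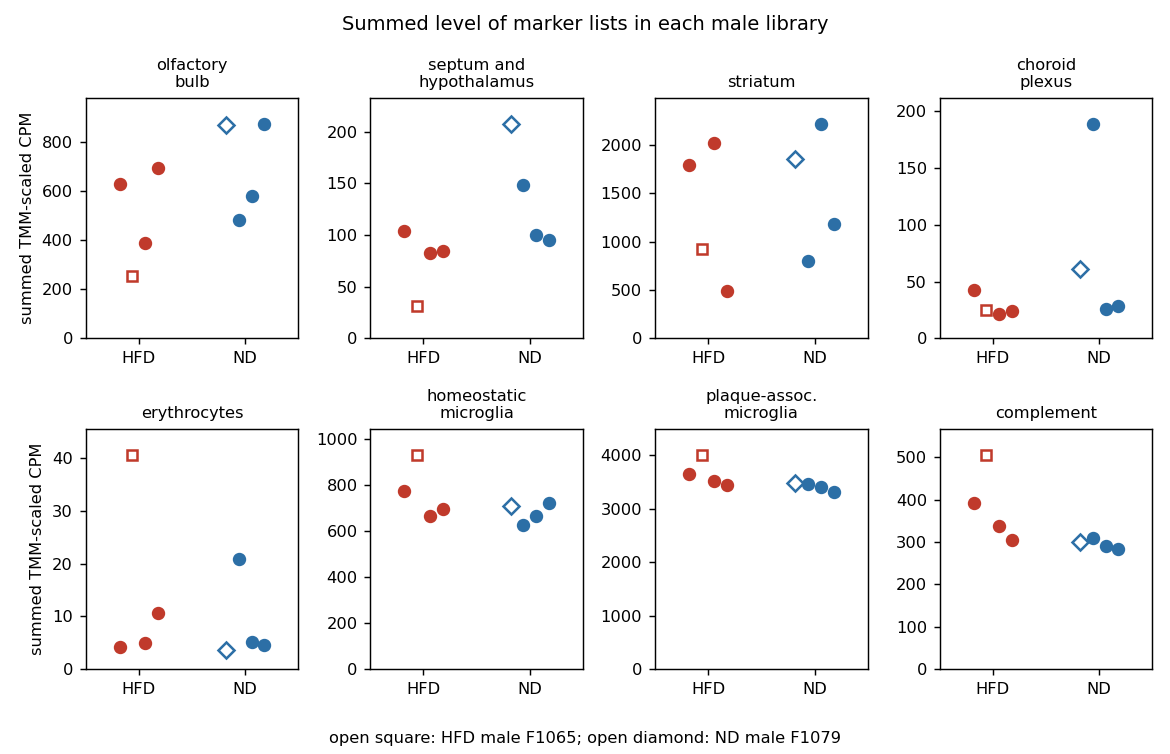
Summed level of 8 marker gene lists in each male library, in TMM-scaled CPM, with HFD males on the left and ND males on the right of each panel and 1 point per mouse. HFD male F1065 (open square) was lowest for olfactory bulb (254.8 CPM) and septum genes (31.02 CPM) and highest for homeostatic microglia (930.6 CPM), plaque-associated microglia (4016 CPM), complement (506.4 CPM) and erythrocytes (40.63 CPM).

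At an unadjusted p under 0.05, the cut off that the study used, 601 genes were up-regulated (4.2% of the 14293 tested) and 601 were down-regulated (4.2%) in HFD males, together 1202 genes (8.41%). In edgeR's quasi-likelihood test with Benjamini-Hochberg adjustment the smallest adjusted p was 0.553, so that 0 genes passed at 0.05. The likelihood ratio and exact tests of edgeR each passed 8 genes (Irf7, Rprm and Jph1 up, Klf4, Sox21, Rnd3, Dgkk and Baiap2l1 down), DESeq2 passed 5 (Irf7, Rprm and Slitrk1 up, Dgkk and Baiap2l1 down) and limma-voom passed 0, with 608 up and 593 down at an unadjusted p under 0.05. All 4 HFD males were above all 4 ND males for 299 genes (2.09%) and below them for 341 genes (2.39%). In the rest of the text, up- and down-regulated mean an unadjusted p under 0.05 in the quasi-likelihood test, fold changes are log2 of HFD over ND with the standard error of the fit, and groups of genes are read against the 4.2% of all genes in each direction. Leaving out F1065 gave 347 up and 392 down, leaving out F1079 gave 337 up and 379 down, and leaving out both gave 246 up and 288 down. Of the 1202 genes up- or down-regulated over all 8 mice, all had the same sign without both and 387 also passed. The remaining mice had helped to choose these genes, so a kept sign is no separate evidence. Scaling by library totals alone, without TMM, gave 405 up and 875 down (31.6% of calls upward, against 50% with TMM) and moved the median log2 fold change of all genes to -0.04.

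**Figure D2:**
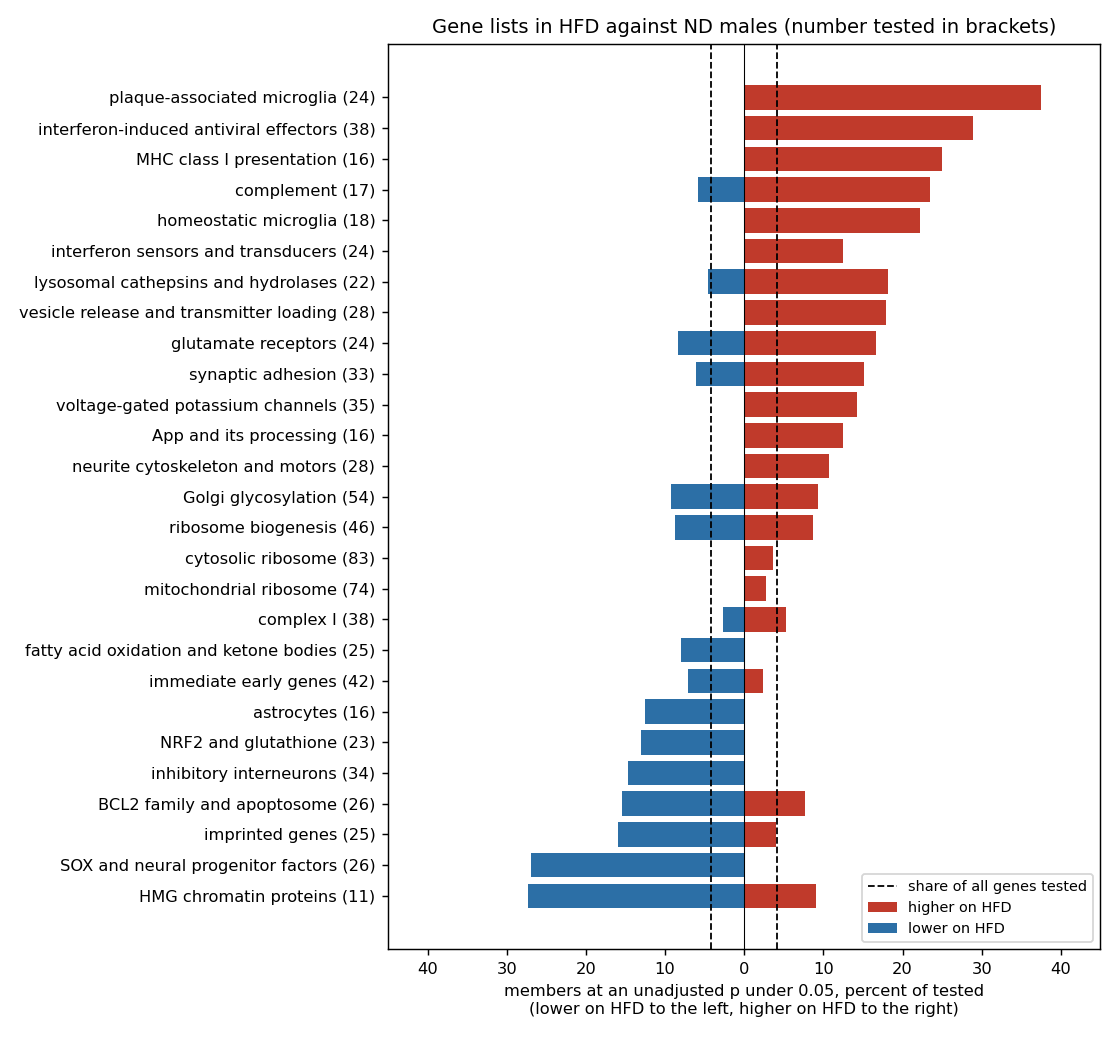
Percent of the tested members of 27 gene lists that were down-regulated (blue, to the left) or up-regulated (red, to the right) at an unadjusted p under 0.05 in HFD males, with the number tested in brackets and the share of all genes (4.2% each way) as dashed lines. The 27 are a selection of the 70 lists, in a chosen order. Some immune lists stand at the top, with 9 of 24 plaque-associated microglia genes and 11 of 38 antiviral effectors up-regulated, and SOX and HMG chromatin lists at the bottom, with 7 of 26 and 3 of 11 genes down-regulated. Not shown are MHC class II (0 of 9 up-regulated), Toll-like receptors and inflammasome (0 of 14), uptake of dying cells (1 of 18) and interferon-inducible GTPases (1 of 12).

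The gene with the smallest p was Irf7, the factor that amplifies type I interferon production. Irf7 had 4.97, 6.47, 3.49 and 4.06 CPM in HFD males, against 1.52, 1.54, 1.57 and 2.33 CPM in ND males. Every HFD male was above every ND male, and the mean was 2.73 times the ND mean (log2 fold change 1.45 ± 0.24, unadjusted p = 7.46e-05). Irf7 passed in each of the fits that left out 1 mouse, with log2 fold changes from 1.27 to 1.61, and without both F1065 and F1079 it was 1.21, unadjusted p = 0.00065.

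Of 38 interferon-induced antiviral effector genes, 11 were up-regulated and 0 down-regulated, 33 had a positive log2 fold change, and the median over the list was 0.36 against -0.00115 over all genes. Trim30a, a RING finger protein that dampens Toll-like receptor signalling, had 4.78, 6.17, 4.39 and 3.77 CPM in HFD males, against 2.85, 2.47, 2.95 and 2.54 CPM in ND males. The groups did not overlap (log2 fold change 0.82 ± 0.19, unadjusted p = 0.00106; 0.70, unadjusted p = 0.00634 without F1065 and F1079). Ifi44, an interferon-induced gene of low level here, had 1.75, 2.12, 2.096 and 1.06 CPM in HFD males, against 1.04, 0.822, 0.688 and 0.846 CPM in ND males, again without overlap (1.03 ± 0.30, unadjusted p = 0.00502). Bst2, the membrane protein tetherin that holds budding viruses, had 3.77, 5.56, 3.39 and 2.81 CPM in HFD males, against 2.28, 2.47, 2.75 and 2.33 CPM in ND males. All HFD males were above all ND males for Bst2 as well (0.66 ± 0.23, unadjusted p = 0.0143), but leaving out F1065 and F1079 gave 0.40, unadjusted p = 0.107. Oasl2, a relative of the enzymes that sense double-stranded RNA, and Rsad2 (viperin) were up-regulated with overlap of the groups (0.63 ± 0.22, unadjusted p = 0.0136, and 0.63 ± 0.25, unadjusted p = 0.0276). Oas2, Ifi27, Lgals3bp, Ifit3b, Adar and Sp100 completed the 11, with positive log2 fold changes, the lowest of them 0.20 (Adar). Ifit3b and Ifit3 are near copies of each other, so reads may be split between them. Bst2 was no longer called without F1065 (0.44) and Rsad2 without A1095, F1065, F1080 or F1128 (0.48 to 0.59). Without F1065 Oasl2 was 0.39 and Lgals3bp 0.37, and both still passed. The number of effectors up-regulated ran from 5 (without F1065) to 17 (without F1145) when 1 mouse was left out, and without both F1065 and F1079 4 of 37 were up-regulated and 1 was down-regulated.

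Among 24 sensors and transducers, Irf7, Usp18 and Irf8 were up-regulated and 0 were down-regulated, with a median of 0.03. Usp18, which removes ISG15 from proteins and restrains the interferon receptor, had 2.67, 3.54, 1.198 and 1.45 CPM in HFD males, against 1.61, 0.617, 1.38 and 0.951 CPM in ND males, and the groups overlapped (0.94 ± 0.39, unadjusted p = 0.0352). Of 12 interferon-inducible GTPase genes Irgm1 was up-regulated (0.30 ± 0.11, unadjusted p = 0.0188) and 0 were down-regulated. For MHC class I presentation 4 of 16 genes were up-regulated and 0 down-regulated. B2m, the light chain shared by class I molecules, had 103, 120.0, 89.3 and 92.97 CPM in HFD males, against 74.95, 83.8, 96.9 and 78.01 CPM in ND males. ND male F1128 was above HFD males F1129 and F1145 (0.28 ± 0.10, unadjusted p = 0.0217), and without F1065 and F1079 the value was 0.14, unadjusted p = 0.143. H2-K1, H2-D1 and H2-T23 had log2 fold changes of 0.26, 0.26 and 0.31, and these heavy chain genes are similar enough to share reads. Of 9 MHC class II genes, 0 passed in either direction. Usp18 was no longer called without A1095, F1065, F1080 or F1131 (0.63 to 0.86), Irgm1 without F1065 or F1079 (0.23 to 0.26) and B2m without F1065, F1079 or F1131 (0.19 to 0.24). Without F1065 alone 0 class I genes passed upward, as without F1131, and of the sensors Irf7 alone passed, Irf8 being at 0.30 against 0.60 with all 8 mice. The summed level of the antiviral effectors was 644.4, 729.9, 624.1 and 604.9 CPM in HFD males, against 560.7, 550.0, 602.1 and 531.6 CPM in ND males. HFD male F1145 was only just above ND male F1128. Adar alone had 300.5, 338, 316.6 and 300.5 CPM in HFD males, against 273.3, 264.2, 313.4 and 241.4 CPM in ND males, with overlap. All HFD males were above all ND males for 3 of the 38 effectors tested, against 2.09% of all genes.

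Promoters of these genes were searched on both strands for the core letters of the ISRE, GAAA followed after any 2 bases by a further GAAA, in windows of 250 bases before to 50 bases after each gene start from RefSeq (GRCm38.p6). The letters were in 29 of the 72 genes of the 4 interferon and class I lists that had a window (40.3%; 90 were tested), against 370 of 10699 tested genes (3.46%) and 3.44% of all 32851 windows. They were in 7 of the 16 up-regulated members with a window (Trim30a, Bst2, Rsad2, Ifit3b, Irgm1, B2m and H2-T23), and 9 had no match, Irf7 among them. A match is a description of the letters and does not show binding. The 5 windows printed here are those of up-regulated genes named above, shown because their matches lie at different distances from the gene start. They are on the strand of the gene, with the matches in capitals.
Bst2, chr8:71537423-71537722, minus strand: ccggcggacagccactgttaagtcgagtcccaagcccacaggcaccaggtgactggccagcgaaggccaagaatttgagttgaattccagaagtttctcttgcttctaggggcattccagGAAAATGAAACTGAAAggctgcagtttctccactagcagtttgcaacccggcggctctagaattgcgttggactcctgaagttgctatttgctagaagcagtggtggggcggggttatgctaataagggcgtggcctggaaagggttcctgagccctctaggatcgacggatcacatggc
Trim30a, chr7:104465144-104465443, minus strand: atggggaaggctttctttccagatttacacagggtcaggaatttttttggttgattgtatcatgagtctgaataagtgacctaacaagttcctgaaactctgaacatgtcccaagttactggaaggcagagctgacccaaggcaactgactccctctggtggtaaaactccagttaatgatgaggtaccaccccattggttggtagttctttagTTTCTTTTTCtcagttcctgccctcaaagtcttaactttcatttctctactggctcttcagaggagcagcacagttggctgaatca
Rsad2, chr12:26456403-26456702, minus strand: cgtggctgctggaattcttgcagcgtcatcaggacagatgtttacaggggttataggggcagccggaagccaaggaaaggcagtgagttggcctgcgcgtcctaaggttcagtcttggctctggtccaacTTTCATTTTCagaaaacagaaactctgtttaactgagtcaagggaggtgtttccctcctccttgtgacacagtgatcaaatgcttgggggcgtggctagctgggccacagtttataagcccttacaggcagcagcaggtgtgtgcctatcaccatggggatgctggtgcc
Irgm1, chr11:48871371-48871670, minus strand: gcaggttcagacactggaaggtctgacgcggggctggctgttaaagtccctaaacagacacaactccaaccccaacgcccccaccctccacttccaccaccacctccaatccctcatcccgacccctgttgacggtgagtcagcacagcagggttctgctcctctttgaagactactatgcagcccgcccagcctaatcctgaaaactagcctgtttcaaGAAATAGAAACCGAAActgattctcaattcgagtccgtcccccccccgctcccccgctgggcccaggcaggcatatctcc
B2m, chr2:122147437-122147736, plus strand: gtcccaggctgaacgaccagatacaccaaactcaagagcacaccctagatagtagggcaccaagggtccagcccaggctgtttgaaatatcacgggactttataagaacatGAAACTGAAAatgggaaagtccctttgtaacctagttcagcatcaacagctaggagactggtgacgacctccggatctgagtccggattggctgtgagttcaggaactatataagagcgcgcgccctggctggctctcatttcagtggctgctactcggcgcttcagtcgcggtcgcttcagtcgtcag

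Counting the first base of the gene as 0, the matches of Bst2 began at -130 and -124 and overlapped each other, as did those of Irgm1 at -30 and -24. Those of B2m, Rsad2 and Trim30a began at -139, -120 and -36, and Trim30a had a match at 2 in the window of a second start. With only the 250 bases before the start, the list share was 31.9% against 2.97% of tested genes, and the same number of up-regulated genes, 7, held a match.

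Genes that microglia raise around plaques were up-regulated in 9 of 24 cases and down-regulated in 0, with a list median of 0.18. Tyrobp, the signalling adaptor of TREM2, had 22.3, 37.9, 17.4 and 18.7 CPM in HFD males, against 14.2, 12.9, 14.4 and 12.7 CPM in ND males. No ND male reached any HFD male, and F1065 was by far the highest (0.82 ± 0.24, unadjusted p = 0.00784). Leaving out F1065 and F1079 gave 0.54, unadjusted p = 0.000956. Cd68, a lysosomal glycoprotein of phagocytes, had 16.1, 24.2, 10.5 and 10.1 CPM in HFD males, against 8.27, 8.12, 9.04 and 8.77 CPM in ND males, also without overlap (0.83 ± 0.27, unadjusted p = 0.0137). Trem2 itself had 19.3, 30.9, 12.2 and 13.6 CPM in HFD males, against 11.1, 12.2, 9.34 and 11.7 CPM in ND males, with ND male F1080 just above HFD male F1129 (0.78 ± 0.29, unadjusted p = 0.0265). The largest log2 fold changes were those of Cst7, Itgax and Ccl6, which encode cystatin F, the integrin CD11c and a chemokine. Cst7 had 7.36, 18.6, 1.098 and 3.39 CPM in HFD males, against 0.38, 1.75, 0.786 and 0.317 CPM in ND males. HFD males F1065 and A1095 carried most of this difference and F1129 lay below ND male F1080 (3.22 ± 1.02, unadjusted p = 0.0157; 2.05, unadjusted p = 0.0526 without F1065 and F1079). Itgax had 2.85, 9.196, 0.898 and 1.65 CPM in HFD males, against 0.38, 1.75, 0.5898 and 0.528 CPM in ND males, with F1065 far above the rest and ND male F1080 level with HFD male F1145 (2.16 ± 0.85, unadjusted p = 0.0353). It passed in 4 of the 8 fits that left out 1 mouse, at 1.17 without F1065. Ccl6 had 5.52, 8.99, 1.298 and 2.03 CPM in HFD males, against 1.425, 0.925, 1.376 and 1.27 CPM in ND males. HFD males F1065 and A1095 again carried most of the difference, and HFD male F1129 lay inside the ND range (1.82 ± 0.61, unadjusted p = 0.0154). Ccl6 still passed without both F1065 and F1079 (1.31, unadjusted p = 0.0413). Ctsb, Ctsd and Lyz2 completed the 9. Trem2 was no longer called without A1095, F1079 or F1128 (0.70 to 0.77) and Cst7 without F1079 (2.97). Without F1065 the log2 fold changes were smaller but passed for Trem2 (0.45), Tyrobp (0.52) and Cd68 (0.52), and Lyz2 (0.24, against 0.38 with all 8 mice) did not pass. The number up-regulated of the 24 ran from 5 (without F1079) to 13 (without F1129) when 1 mouse was left out, and was 4 without both F1065 and F1079.

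C1q, made in the brain mainly by microglia, starts the classical complement pathway, and its 3 subunit genes were all up-regulated. C1qc had 47.01, 67.4, 46.1 and 37.8 CPM in HFD males, against 32.8, 36.3, 32.9 and 31.2 CPM in ND males, and C1qb 64.8, 89.8, 58.7 and 51.1 CPM in HFD males, against 44.2, 47.5, 47.9 and 48.7 CPM in ND males. Neither overlapped (0.57 ± 0.16, unadjusted p = 0.00451 for C1qc, 0.49 ± 0.15, unadjusted p = 0.0109 for C1qb). C1qa had 0.49 ± 0.21, unadjusted p = 0.0448, and HFD male F1145 (43.6 CPM) lay below 2 of the ND males. Itgb2, the beta chain of complement receptor 3, was up-regulated (0.56 ± 0.23, unadjusted p = 0.0324) and Cfp, which encodes properdin of the alternative pathway, was down-regulated (-0.47 ± 0.19, unadjusted p = 0.0346), so 4 of 17 complement genes were up and 1 down. C1qa was no longer called without A1095, F1079, F1080, F1128 or F1131 (0.44 to 0.52), Itgb2 without A1095, F1065, F1079 or F1128 (0.31 to 0.57) and Cfp without F1065, F1079, F1128, F1129, F1131 or F1145 (-0.48 to -0.33). Without F1065 alone C1qa was 0.25 and C1qb 0.31, both still passing, and without both F1065 and F1079 C1qa was 0.20, unadjusted p = 0.0728. From 2 (without A1095, F1079 or F1128) to 7 (without F1145) complement genes were up-regulated when 1 mouse was left out. Without F1065 and F1079, 2 of 17 were up-regulated (C1qb and C1qc) and 0 down-regulated.

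Homeostatic microglia genes were up-regulated in 4 of 18 cases (Tmem119, P2ry13, Cx3cr1 and Gpr34) and down-regulated in 0, and 16 had a positive log2 fold change (median 0.28). Scaling by library totals left 1 of the 18 up-regulated, and leaving out 1 mouse left from 1 to 10. Tmem119, a microglia-specific membrane protein, had 33.2, 34.3, 29.4 and 27.5 CPM in HFD males, against 24.7, 26.8, 25.6 and 25.6 CPM in ND males, and the groups did not overlap (0.28 ± 0.08, unadjusted p = 0.00588; 0.21, unadjusted p = 0.0484 without F1065 and F1079). Another defining gene, P2ry12, ranged from 40.7 to 51.3 CPM over the 8 mice and did not pass. In RNA of whole cortex, more microglia and more RNA of these genes per microglial cell cannot be told apart. Lysosomal cathepsin and hydrolase genes were up-regulated in 4 of 22 cases (Ctsb, Ctsd, Ctsz and Cst3), while Tfeb, a master factor of lysosome genes, was down-regulated (-0.49 ± 0.19, unadjusted p = 0.0223). Ctsd, an aspartic protease, had 337, 460.5, 268 and 282 CPM in HFD males, against 252, 255, 270.4 and 270.0 CPM in ND males, with F1065 far above the rest and HFD male F1129 inside the ND range (0.36 ± 0.16, unadjusted p = 0.0454). The summed level of the 22 lysosomal genes was 4524, 5076, 4478 and 4406 CPM in HFD males and 4229, 4270, 4225 and 4218 CPM in ND males, without overlap, yet without F1065 and F1079 0 were up-regulated and 1, Tfeb, was down-regulated. Of 14 Toll-like receptor and inflammasome genes 0 passed, and of 18 genes for uptake of dying cells only Scarf1, a scavenger receptor for C1q-coated cells, was up-regulated (0.74 ± 0.25, unadjusted p = 0.0121). Erythrocyte genes were also highest in F1065 (40.63 CPM summed, against 3.705 to 20.86 CPM in the other 7 mice), and their part in the immune results was not tested. Ctsd was no longer called without A1095, F1079, F1080, F1128 or F1131 (0.34 to 0.37) and Tfeb without A1095, F1079 or F1145 (-0.40 to -0.39). Without F1065 Ctsd was 0.18 and still passed, and Ctsz (0.18) and Cx3cr1 (0.17) did not, against 0.34 and 0.29 with all 8 mice. The lysosomal genes up-regulated numbered from 1 (without F1065, F1079, F1080 or F1131) to 8 (without F1129), and up to 3 Toll-like receptor and inflammasome genes passed upward (without F1145).

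**Figure D3:**
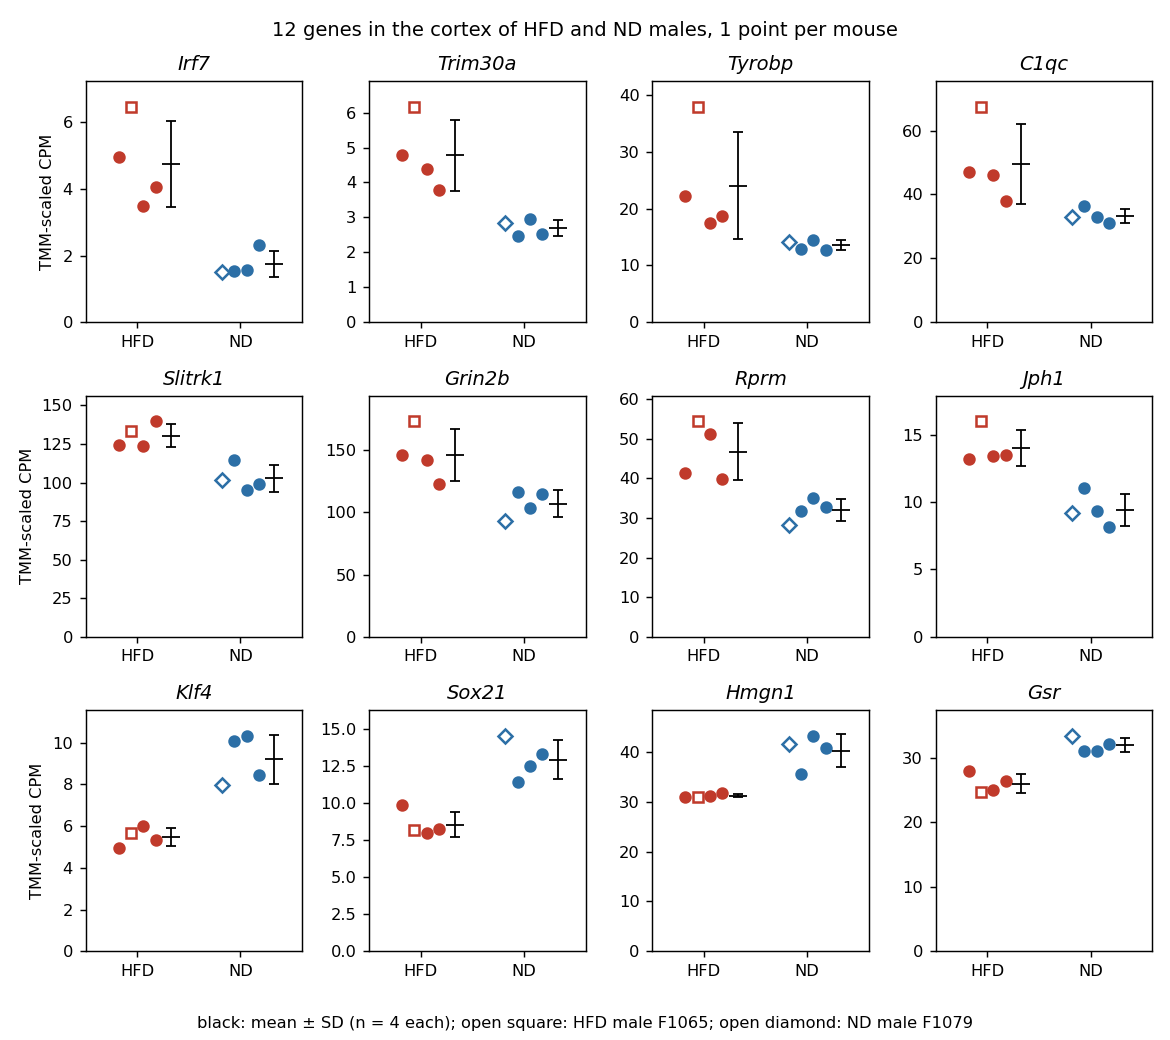
Level of 12 genes in each mouse in TMM-scaled CPM, HFD males on the left and ND males on the right of each panel, with mean ± SD in black (n = 4 each). The 12 were chosen from the up- and down-regulated genes named in the text, so that their groups do not overlap is no separate evidence. Of all genes tested, 2.09% had all HFD males above all ND males and 2.39% had them below. HFD male F1065 (open square) is the highest HFD mouse for Irf7, Trim30a, Tyrobp and C1qc (6.47, 6.17, 37.9 and 67.4 CPM).

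Genes of the synapse were also found among those up-regulated. Slitrk1, a transmembrane protein that organises synapses from the receiving side, had 124, 133, 124 and 139.6 CPM in HFD males, against 102, 115, 95.2 and 99.05 CPM in ND males. Each HFD male was above each ND male (0.34 ± 0.07, unadjusted p = 0.000308; 0.33, unadjusted p = 0.00217 without F1065 and F1079). Its relatives Slitrk3, Slitrk4 and Slitrk5 were up-regulated by log2 fold changes of 0.19, 0.20 and 0.24, as was Flrt2 (0.34), while Cbln1 and Nrxn3 were down-regulated (-0.52 and -0.14). Of 33 synaptic adhesion genes, 5 were thus up and 2 down. When 1 mouse was left out, from 5 to 11 (without F1080) were up and from 0 (without F1131) to 2 down, and without both F1065 and F1079 3 were up and 1 down. Flrt2 was 0.23 without F1065 and still passed. Cbln1 was no longer called without F1065, F1079, F1129 or F1131 (-0.47 to -0.38) and Nrxn3 without A1095, F1080, F1128, F1131 or F1145 (-0.15 to -0.09).

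Among 24 glutamate receptor genes 4 were up-regulated and 2 down-regulated. Grin2b, the NMDA receptor subunit that dominates early in development, had 146, 173, 142 and 122 CPM in HFD males, against 93.3, 116, 104 and 115 CPM in ND males. Grin2a, the subunit that joins later, had 29.4, 36.3, 34.9 and 26.4 CPM in HFD males, against 17.6, 24.5, 25.1 and 21.6 CPM in ND males. The groups did not overlap for either (0.45 ± 0.10, unadjusted p = 0.00131 for Grin2b, 0.52 ± 0.13, unadjusted p = 0.00195 for Grin2a), and both passed without F1065 and F1079 (0.30, unadjusted p = 0.00355, and 0.35, unadjusted p = 0.0109). Leaving out 1 mouse gave from 2 (without F1065) to 5 (without F1080) genes up and from 1 (without F1079) to 4 (without F1080) down, and leaving out both gave 2 up and 1 down. Gria3 and Grid1 were up-regulated (0.18 and 0.14) and Grin2d and Grm4 down-regulated (-0.49 and -0.44). Gria3 was no longer called without F1065, F1079, F1131 or F1145 (0.12 to 0.19), Grid1 without F1065 or F1129 (0.13) and Grin2d without F1079 (-0.33). Srr, the enzyme that makes the NMDA receptor co-agonist D-serine, had 70.6, 74.98, 73.8 and 73.5 CPM in HFD males, against 63.4, 61.7, 66.5 and 61.8 CPM in ND males, a small difference without overlap (0.21 ± 0.05, unadjusted p = 0.00181). Slc25a22, a mitochondrial glutamate carrier, had 248, 296, 241 and 266 CPM in HFD males, against 200.4, 230.2, 205 and 220.2 CPM in ND males, the lowest HFD male standing above the highest ND male (0.30 ± 0.07, unadjusted p = 0.00182).

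Genes for vesicle release and transmitter loading were up-regulated in 5 of 28 cases and down-regulated in 0: Rims1 and Unc13a of the active zone, Sv2b and Syt1 of the vesicle, and Slc17a7, the vesicular glutamate transporter. Rims1 had 195, 265, 203 and 204 CPM in HFD males, against 132, 193, 167 and 175 CPM in ND males, F1065 standing apart and the groups not overlapping (0.38 ± 0.13, unadjusted p = 0.0143). Slc17a7 had 1346, 1711, 1437 and 1484 CPM in HFD males, against 988 to 1425 CPM in ND males. Its ND values spanned more than the difference between the groups, with F1079 the lowest, and without F1065 and F1079 it no longer passed (0.26 ± 0.11, unadjusted p = 0.039; 0.09, unadjusted p = 0.21 without the pair). Of 35 voltage-gated potassium channel genes 5 were up-regulated, Kcna2, Kcnq3, Kcnh7 and Kcnv1 among them, and 0 down-regulated, but only Kcna2 passed without both mice. Kcna2, a channel of axons, had 94.4, 112, 109 and 109 CPM in HFD males, against 85.1, 96.5, 84.6 and 88.5 CPM in ND males, and HFD male A1095 was below ND male F1080 (0.26 ± 0.07, unadjusted p = 0.00246). Slc17a7 was no longer called without F1065, F1079, F1128 or F1145 (0.16 to 0.26). Sv2b was 0.23 without F1079, against 0.35 with all 8 mice, and still passed. From 2 (without F1065) to 6 (without A1095 or F1080) vesicle genes were up and up to 2 (without F1080 or F1129) down when 1 mouse was left out, and 2 were up without both. For the potassium channels the number up ran from 3 (without F1065 or F1079) to 9 (without F1080).

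App and Thy1 were the 2 of 16 genes of the App list that were up-regulated. App had 2634, 3406, 2968 and 2677 CPM in HFD males, against 2098, 2813, 2589 and 2277 CPM in ND males, and Thy1 3953, 5998, 4364 and 3955 CPM in HFD males, against 2263, 3841, 3909 and 2916 CPM in ND males. The App groups overlapped and the Thy1 groups did not (0.26 ± 0.11, unadjusted p = 0.033 for App, 0.50 ± 0.20, unadjusted p = 0.0378 for Thy1), and neither passed without F1065 and F1079 (0.11, unadjusted p = 0.215, and 0.20, unadjusted p = 0.089). The transgene is a human APP sequence under Thy1 regulatory sequence, so transgene and endogenous transcripts cannot be told apart in these 2 genes. App was no longer called without F1065, F1079, F1129 or F1131 (0.18 to 0.25) and Thy1 without F1065, F1079, F1129 or F1131 (0.34 to 0.52).

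Other genes among the 15 with the smallest p upward came from no list of one theme. Rprm, a p53 target that also marks layer 6 neurons, had 41.3, 54.4, 51.2 and 39.95 CPM in HFD males, against 28.3, 31.6, 35.1 and 32.8 CPM in ND males, without overlap (0.55 ± 0.11, unadjusted p = 0.000315). Jph1, a junctophilin that ties the endoplasmic reticulum to the cell membrane, had 13.2, 15.97, 13.4 and 13.4 CPM in HFD males, against 9.21, 11, 9.34 and 8.14 CPM in ND males, without overlap (0.57 ± 0.12, unadjusted p = 0.000373). Of 21 p53 targets 2 were up (Rprm and Ccng1) and 1 down (Mdm2), and of 24 calcium store and junctophilin genes Jph1 alone passed, counts that ran from 1 to 3 up and from 1 to 2 down (p53 targets) and from 1 to 3 up (calcium stores) when 1 mouse was left out.

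Golgi enzymes split evenly, 5 of 54 up-regulated and 5 down-regulated, though leaving out F1079 or F1080 left 1 down and leaving out both F1065 and F1079 gave 3 up and 2 down. Manea, an endomannosidase, had 57.04, 57.3, 57 and 57.9 CPM in HFD males, against 46.9, 50.05, 48.96 and 49.9 CPM in ND males, a narrow pair of ranges without overlap (0.23 ± 0.05, unadjusted p = 0.000964). St6gal2, a sialyltransferase of brain, had 13.8, 17.2, 14.1 and 16.6 CPM in HFD males, against 6.55, 12.02, 11.1 and 8.98 CPM in ND males, also without overlap (0.67 ± 0.17, unadjusted p = 0.00172). St8sia4, which builds polysialic acid on neural cell adhesion molecules, was down-regulated (-0.36 ± 0.11, unadjusted p = 0.00573). Bok, a pro-apoptotic member of the BCL2 family, had 34.4, 36.6, 35.2 and 31.9 CPM in HFD males, against 24.3, 28.9, 30.6 and 25.9 CPM in ND males (0.33 ± 0.08, unadjusted p = 0.00201), and the groups did not overlap. In the BCL2 family and apoptosome list, Bok and Bad were up and Bcl2, Bcl2l11, Apaf1 and Casp6 down (2 and 4 of 26). No fit that left out 1 mouse held all 4, the number down running from 0 (without F1145) to 3 (without F1129) and being 1 without both F1065 and F1079. Bad was no longer called without F1128, F1129, F1131 or F1145 (0.19 to 0.24), Bcl2 without A1095, F1080, F1128, F1129 or F1145 (-0.18 to -0.16), Bcl2l11 without A1095, F1065, F1079, F1080, F1131 or F1145 (-0.28 to -0.24), Apaf1 without F1065 or F1145 (-0.19 to -0.17) and Casp6 without A1095, F1065, F1079, F1080, F1128, F1131 or F1145 (-0.51 to -0.33). Vmn2r87, listed as a vomeronasal receptor gene, had 1.56, 1.31, 1.398 and 0.967 CPM in HFD males, against 0.475, 0.514, 0.5898 and 0.211 CPM in ND males, without overlap (1.52 ± 0.35, unadjusted p = 0.000996), at a level of 2 to 17 reads per library and in a family of near copies, so its reads may be shared.

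Klf4, a Kruppel-like transcription factor, was the gene with the smallest p downward. Klf4 had 4.97, 5.66, 5.99 and 5.32 CPM in HFD males, against 7.98, 10.1, 10.3 and 8.46 CPM in ND males. The highest HFD male was well below the lowest ND male, and the HFD mean was 0.596 times the ND mean (-0.75 ± 0.13, unadjusted p = 0.000113). All 8 fits that left out 1 mouse kept the call, with log2 fold changes from -0.81 to -0.69. In the fit of all 19 libraries Klf4 was the only gene with an adjusted p under 0.05 for the male contrast (0.0182, edgeR's quasi-likelihood test with Benjamini-Hochberg adjustment). Among 14 Kruppel-like factors Klf6 was up-regulated (0.22 ± 0.10, unadjusted p = 0.0486) and the other 12 did not pass. Klf6 was no longer called without A1095, F1065, F1079, F1128 or F1131 (0.12 to 0.23).

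Klf4 also belongs to a list of 42 immediate early genes, which neurons switch on within minutes of activity. Of these 3 were down-regulated (Klf4, Pim1 and Fosb), 1 was up-regulated (Klf6), and only 5 had a positive log2 fold change, with a list median of -0.22. Pim1, a kinase, had 2.85, 3.03, 2.496 and 2.999 CPM in HFD males, against 4.46, 4.62, 5.21 and 3.7 CPM in ND males, without overlap (-0.66 ± 0.17, unadjusted p = 0.00219). Fosb, a partner of JUN in the AP-1 factor, had 17.3, 23.6, 25.3 and 28.6 CPM in HFD males, against 24.9, 38.2, 38.1 and 31.3 CPM in ND males, with overlap (-0.48 ± 0.17, unadjusted p = 0.0199). Sik1, a kinase induced by cyclic AMP, had 15.2, 16.1, 18.8 and 35.7 CPM in HFD males, against 31.4, 32.3, 28.2 and 32.8 CPM in ND males and did not pass. HFD male F1145 alone lay above all ND males, and leaving it out gave -0.90 with an adjusted p of 0.0234 in edgeR's quasi-likelihood test. Fosb was no longer called without F1080 or F1128 (-0.41). From 2 (without F1080 or F1128) to 11 (without F1145) of the list were down-regulated when 1 mouse was left out. Without F1065 and F1079, 9 of the 42 were down-regulated and 0 up-regulated, and the list median was -0.41. The summed level of the list was 1507, 2365, 2139 and 2418 CPM in HFD males and 1892, 2696, 2799 and 2345 CPM in ND males, so the groups overlapped.

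SOX and neural progenitor factors were down-regulated in 7 of 26 cases and up-regulated in 0, with a median of -0.30. Sox21, a repressor partner of SOX2 in progenitors and glia, had 9.84, 8.19, 7.99 and 8.22 CPM in HFD males, against 14.5, 11.4, 12.5 and 13.3 CPM in ND males. No HFD male reached an ND male (-0.59 ± 0.12, unadjusted p = 0.000247; -0.51, unadjusted p = 0.00298 without F1065 and F1079). Sox2 had 28.1, 24.96, 22.6 and 27.5 CPM in HFD males, against 39.99, 28.6, 28.2 and 32.98 CPM in ND males, and Sox1 22.6, 11.02, 20.3 and 20.5 CPM in HFD males, against 40.5, 27.6, 23 and 26.9 CPM in ND males. Neither overlapped, and ND male F1079 was highest in each (-0.33 ± 0.12, unadjusted p = 0.0158 for Sox2, -0.66 ± 0.24, unadjusted p = 0.0248 for Sox1). Sox7, Sox11, Nes (nestin) and Cd24a completed the 7, and 3 of 26 (Sox21, Nes and Sox1) passed without both mice. ND male F1079, highest for the septum list, was also highest for each of the 7 except Nes. HFD male F1065, lowest for the olfactory bulb and septum lists, was lowest for Sox1, Sox11 and Cd24a but not for the others. The part of neighbouring tissue in these counts was not tested. Sox1 was no longer called without F1079 (-0.47) and Sox2 without F1079 or F1129 (-0.27 to -0.22). Nes was -0.28 without F1128, against -0.48 with all 8 mice, and still passed, and the number of list genes down ran from 3 (without F1079) to 10 (without F1128). Nr2e1, a nuclear receptor of neural stem cells that is not on the list, had 15.4, 14.8, 15.6 and 15.8 CPM in HFD males, against 20.1, 18.4, 19.6 and 19.03 CPM in ND males, without overlap (-0.33 ± 0.08, unadjusted p = 0.00105).

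Genes of inhibitory interneurons were down-regulated in 5 of 34 cases and up-regulated in 0. Reln, the secreted protein reelin, had 109, 84.8, 93.9 and 91.9 CPM in HFD males, against 139.7, 104, 119 and 148 CPM in ND males, and Npy, a neuropeptide, 41.03, 46.7, 48.3 and 42.9 CPM in HFD males, against 46.9, 53.9, 54.5 and 53.3 CPM in ND males. HFD male A1095 lay above ND male F1080 for Reln, and HFD male F1129 lay above ND male F1079 for Npy (-0.43 ± 0.11, unadjusted p = 0.0035 for Reln, -0.22 ± 0.07, unadjusted p = 0.0107 for Npy). Sp9 and Dlx5, factors that specify interneurons of the ventral forebrain and of the olfactory bulb, had log2 fold changes of -0.69 and -0.77. Both were lowest in F1065 and neither passed without F1065 and F1079, the mice at the extremes of the septum list (31.02 and 207.9 CPM). The interneuron list summed to 3101, 2551, 2909 and 3017 CPM in HFD males and to 3989, 3196, 3182 and 3469 CPM in ND males, without overlap. Leaving out 1 mouse gave from 4 to 6 interneuron genes down, and leaving out both gave 2. The part of olfactory bulb or septum tissue in these counts was not tested.

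Several genes that fell most steeply by fold are expressed at a low level. Dgkk, a diacylglycerol kinase, had 1.66, 1.11, 1.697 and 0.484 CPM in HFD males, against 6.17, 5.04, 3.34 and 2.54 CPM in ND males, without overlap (-1.78 ± 0.37, unadjusted p = 0.000499; -1.50, unadjusted p = 0.00388 without F1065 and F1079). Gabrq, the theta subunit of GABA-A receptors, had 0.736, 0.303, 0.699 and 0.581 CPM in HFD males, against 2.66, 1.85, 1.08 and 1.16 CPM in ND males, without overlap (-1.52 ± 0.39, unadjusted p = 0.00227). Both were highest in ND male F1079, which was also the highest mouse for septum and hypothalamus genes (207.9 CPM), and the part of such tissue was not tested. Prlr, the prolactin receptor and a choroid plexus gene, had 1.196, 1.62, 0.998 and 0.2902 CPM in HFD males, against 6.55, 5.65, 2.36 and 0.74 CPM in ND males, with overlap, and was -1.80, unadjusted p = 0.0585 without F1065 and F1079, while the other 5 choroid plexus genes did not pass. Prlr was no longer called without F1079, F1080 or F1145 (-1.66 to -1.51). Baiap2l1 had 1.104, 0.606, 0.898 and 0.677 CPM in HFD males, against 5.7, 12.3, 1.08 and 14.3 CPM in ND males. ND males F1079, F1080 and F1131 were far above the HFD males, and ND male F1128 was inside the HFD range (-3.31 ± 0.80, unadjusted p = 0.0039).

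Astrocyte genes were down-regulated in 2 of 16 cases (Gja1 and Mlc1), in 1 (without F1065 or F1079) to 6 (without F1128) cases when 1 mouse was left out, and in 0 without both F1065 and F1079. Mlc1, a membrane protein of astrocyte end feet, passed in only 1 of the 8 fits that left out 1 mouse. Kcnj10, the channel KIR4.1 by which astrocytes clear potassium, was not on that list but was among the 15 genes with the smallest p downward. Kcnj10 had 242, 219, 222 and 236 CPM in HFD males, against 324, 278, 256 and 291 CPM in ND males, and every ND male was above every HFD male (-0.32 ± 0.07, unadjusted p = 0.000933; -0.23, unadjusted p = 0.00537 without F1065 and F1079). Gja1, the gap junction protein connexin 43, had 207, 189.5, 214 and 230.2 CPM in HFD males, against 280.3, 255, 219 and 238 CPM in ND males, with overlap (-0.24 ± 0.08, unadjusted p = 0.0135), and -0.13, unadjusted p = 0.107 without the pair. Ece1, an endothelin-converting enzyme that also cleaves amyloid beta, had 60.9, 60.1, 69.5 and 62.3 CPM in HFD males, against 78.9, 79.1, 77.5 and 71.5 CPM in ND males, without overlap (-0.28 ± 0.06, unadjusted p = 0.000819). Acan, the aggrecan of perineuronal nets, had 5.796, 5.25, 4.79 and 4.74 CPM in HFD males, against 8.27, 6.58, 8.55 and 6.98 CPM in ND males, without overlap (-0.56 ± 0.14, unadjusted p = 0.00177). Rnd3, an atypical small GTPase, had 16.1, 12.8, 13.3 and 18.7 CPM in HFD males, against 26.2, 19.6, 22.4 and 28.1 CPM in ND males, also without overlap (-0.66 ± 0.14, unadjusted p = 0.000634).

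Several nuclear proteins were among the leading down-regulated genes. Hmgn1, a nucleosome-binding protein, had 31, 31.02, 31.1 and 31.7 CPM in HFD males, against 41.6, 35.6, 43.2 and 40.7 CPM in ND males. The HFD values lay within 1 CPM of each other and below every ND male (-0.37 ± 0.07, unadjusted p = 0.00025); Hmgn1 has many near-identical pseudogene copies, so its reads may be shared. Hmgn2 and Hmgb3 were also down-regulated, making 3 of 11 on the list of HMG chromatin proteins. Pknox1, a homeobox factor of the TALE class, had 19.6, 16.3, 16.4 and 18.6 CPM in HFD males, against 23.3, 23.02, 21.9 and 25.6 CPM in ND males (-0.40 ± 0.09, unadjusted p = 0.000712), and Rrp8, a nucleolar methyltransferase of ribosomal RNA, had 9.94, 9.196, 9.08 and 9.29 CPM in HFD males, against 12.1, 12.7, 13.1 and 13.4 CPM in ND males (-0.45 ± 0.09, unadjusted p = 0.000405). Neither overlapped. Without F1065, F1129 or F1131 1 gene of the HMG list was down. Of 46 ribosome biogenesis genes 4 were up-regulated and 4 down-regulated, against 0 up and 2 down without both F1065 and F1079 and 1 down without F1065 alone. Of 83 cytosolic ribosomal protein genes 3 were up-regulated (Rpsa, Rps10 and Rps13, at log2 fold changes of 0.19, 0.28 and 0.57) and 0 down-regulated. The ribosomal protein genes up-regulated ran from 2 (without F1145) to 6 (without F1080).

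The diet supplied fat, and few genes of fat and energy metabolism passed. Scd1, the desaturase that makes monounsaturated fatty acids, had 274, 293, 306 and 296 CPM in HFD males, against 390.5, 356, 319 and 342 CPM in ND males. All HFD males were below all ND males (-0.27 ± 0.07, unadjusted p = 0.0021; -0.21, unadjusted p = 0.00884 without F1065 and F1079). Echs1, a hydratase of fatty acid beta oxidation, had 43.5, 45.7, 44.9 and 41.3 CPM in HFD males, against 50.2, 51.4, 47.4 and 51.2 CPM in ND males, without overlap (-0.19 ± 0.06, unadjusted p = 0.00775), and with Acadm made 2 of 25 fatty acid oxidation and ketone body genes down-regulated and 0 up-regulated. Of 22 cholesterol synthesis and uptake genes only Pmvk passed, downward (-0.14), and of 24 lipoprotein and LXR target genes Scd1 and Lrp8 were down and Nr1h2 up. For the respiratory chain 2 of 38 complex I genes were up and 1 down, 0 passed of the 3, 8 and 13 genes of complexes II, III and IV, and 1 of 16 ATP synthase genes was down. Of 28 insulin, IGF and mTOR signalling genes Rptor and Eif4ebp1 were up-regulated (0.17 and 0.72). When 1 mouse was left out, each of these metabolic lists held from 0 to 4 genes past the threshold in either direction.

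Antioxidant genes of the NRF2 and glutathione list were down-regulated in 3 of 23 cases and up-regulated in 0, with a median of -0.04. Gsr, glutathione reductase, had 27.9, 24.7, 24.96 and 26.4 CPM in HFD males, against 33.3, 31.03, 31.1 and 32.1 CPM in ND males. The highest HFD male was below the lowest ND male (-0.30 ± 0.07, unadjusted p = 0.00112; -0.25, unadjusted p = 0.0132 without F1065 and F1079). Txnrd1, thioredoxin reductase, had 65.3, 61.5, 69.2 and 57.4 CPM in HFD males, against 76.8, 72.7, 75.7 and 66.3 CPM in ND males, with overlap (-0.20 ± 0.07, unadjusted p = 0.015), and Srxn1, sulfiredoxin, had 109.8, 115, 111 and 99.5 CPM in HFD males, against 119.9, 116, 118 and 123 CPM in ND males, without overlap (-0.13 ± 0.06, unadjusted p = 0.0349). Txnrd1 was no longer called without F1145 (-0.16) and Srxn1 without A1095, F1131 or F1145 (-0.14 to -0.09). Gsr had no window in the RefSeq promoter table. The core letters of the antioxidant response element bound by NRF2, TGACNNNGC, searched on both strands, were in 8 of the 18 list genes with a window (44.4%), Txnrd1 and Srxn1 included, against 16.8% of tested genes and 12.4% of all windows. With only the 250 bases before the start they were in 6 of the 18 (33.3%), against 13.9% of tested genes. Srxn1 was then without a match, since its match began at 28, after the start. The Txnrd1 window is shown with its match in capitals, which began at -92 from the gene start.
Txnrd1, chr10:82858956-82859255, plus strand: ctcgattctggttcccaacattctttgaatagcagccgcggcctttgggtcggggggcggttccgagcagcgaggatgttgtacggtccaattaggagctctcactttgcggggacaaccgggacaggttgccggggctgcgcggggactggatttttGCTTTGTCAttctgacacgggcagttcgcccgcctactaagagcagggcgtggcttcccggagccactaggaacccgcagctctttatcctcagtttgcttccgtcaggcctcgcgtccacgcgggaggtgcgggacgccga

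Whether these male differences were also found in females was asked with the 11 female libraries, in which 578 genes were up-regulated (3.92% of 14756) and 664 down-regulated (4.5%). The interaction of diet and sex passed an unadjusted p under 0.05 for 778 of 14934 genes (5.21%), 423 with the higher and 355 with the lower log2 fold change in males, and for 0 genes after Benjamini-Hochberg adjustment in edgeR's quasi-likelihood test (smallest adjusted p 0.903). With limma-voom the counts were 420 and 332, with DESeq2 410 and 288, and with edgeR's likelihood ratio test 354 and 299, again with 0 after adjustment. Leaving out ND male F1080 gave 677 and 483. Irf7 and Trim30a had log2 fold changes of 1.45 and 0.82 in males and of 1.20 ± 0.33 and 0.83 ± 0.20 in females, with interactions of 0.24 ± 0.50, unadjusted p = 0.629 and -0.02 ± 0.32, unadjusted p = 0.958. For the antiviral effectors 11 of 38 were up-regulated in males and 28 of 38 in females, and for the plaque-associated microglia genes 9 of 24 and 12 of 24, counts that also depend on the number of mice and were not tested against each other. In females 0 genes of the synaptic adhesion, glutamate receptor and potassium channel lists were up-regulated, and 7 of 33, 2 of 24 and 3 of 35 were down-regulated. In the vesicle release list Rims1 alone was up-regulated in females (0.21 ± 0.08). Grin2b was 0.45 in males and -0.05 ± 0.14 in females (interaction 0.49 ± 0.20, unadjusted p = 0.0218), and Grin2a 0.52 and -0.05 ± 0.16 (interaction 0.57 ± 0.24, unadjusted p = 0.0276).

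The 5 genes with the smallest interaction p were Pknox1, Snhg14, Gsr, Map1s and Car3. Pknox1 and Gsr, down-regulated in males, had female log2 fold changes of 0.01 ± 0.06 and 0.13 ± 0.07 (interactions -0.41 ± 0.09, unadjusted p = 0.000312 and -0.43 ± 0.10, unadjusted p = 0.000453). Snhg14, a long imprinted transcript antisense to Ube3a, had 17.7, 18.9, 16.97 and 18.2 CPM in HFD males, against 14.9, 13.98, 12.7 and 15.1 CPM in ND males, without overlap (0.34 ± 0.09, unadjusted p = 0.00224). In females it was down-regulated (-0.18 ± 0.08; interaction 0.52 ± 0.12, unadjusted p = 0.00033), and since the strand setting of the counting is not known, reads of Ube3a and Snhg14 cannot be told apart where they overlap. Map1s, a microtubule-associated protein, had 31.8, 36.6, 38.03 and 32.7 CPM in HFD males, against 28.9, 31.9, 23.3 and 29.9 CPM in ND males, ND male F1080 lying just above HFD male A1095 (0.29 ± 0.10, unadjusted p = 0.014). It too was down-regulated in females (-0.20 ± 0.06; interaction 0.49 ± 0.12, unadjusted p = 0.000481). Car3, carbonic anhydrase 3, had 0.552, 0.404, 0.299 and 0.871 CPM in HFD males, against 1.52, 1.13, 1.08 and 1.48 CPM in ND males, without overlap but at 3 to 16 reads per library (-1.27 ± 0.35, unadjusted p = 0.00383), and 0.50 ± 0.28 in females (interaction -1.77 ± 0.45, unadjusted p = 0.000825).

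**Figure D4:**
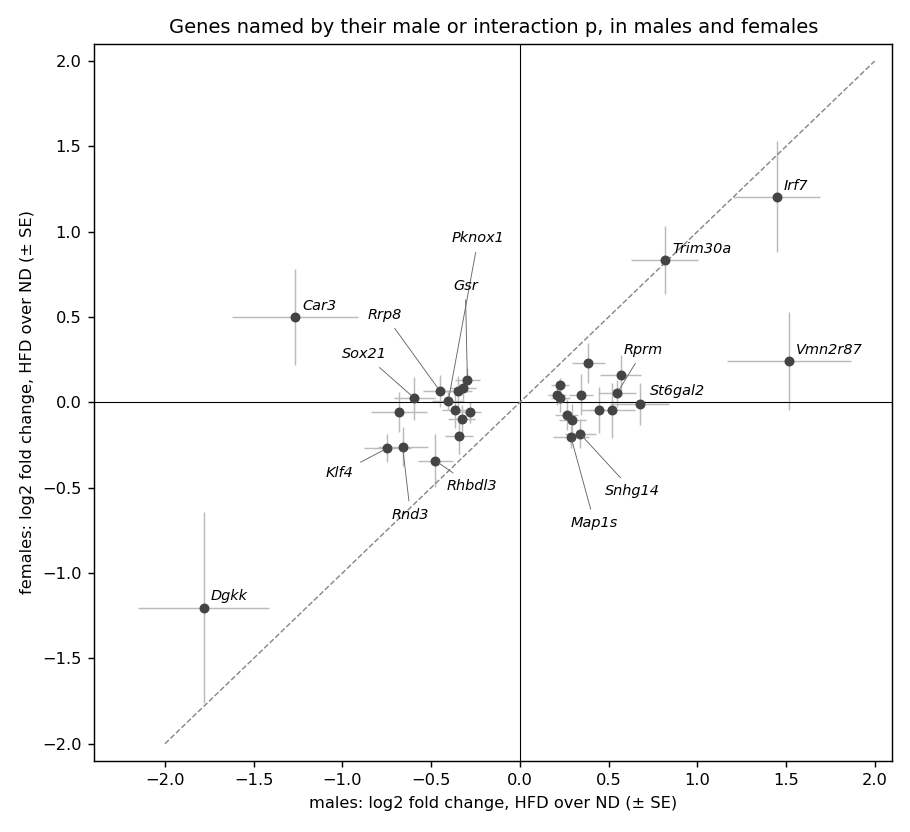
Log2 fold change (HFD over ND) in males (horizontal) against females (vertical) for the 30 genes with the smallest male p and for Snhg14, Map1s and Car3, with bars of 1 SE and a dashed line of equality. Irf7 and Trim30a lie near the line (1.45 and 0.82 in males, 1.20 and 0.83 in females), while Pknox1, Gsr and Rrp8 are below 0 in males and at or above 0 in females.

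**Figure D5:**
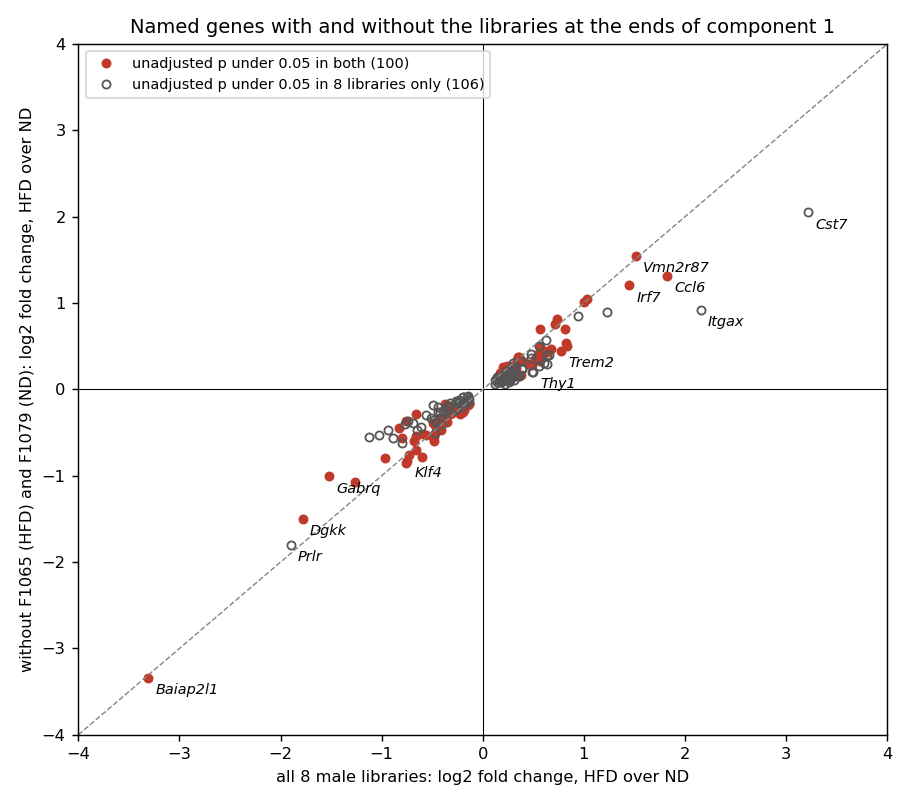
Log2 fold change of 206 named genes with an unadjusted p under 0.05 over all 8 male libraries (horizontal) and without HFD male F1065 and ND male F1079 (vertical), with a dashed line of equality. All 206, which were chosen with the same mice, keep their sign, 100 (filled) still pass and 106 (open) do not, and Cst7 is at 3.22 with all 8 mice and at 2.05 without both.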

How the data were processed

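RNA-seq libraries of cortex from 8 male APP23 mice were compared, 4 on HFD and 4 on ND, 1 mouse per library as the labels give it, and 11 female libraries entered only the fits named with females or with 19 libraries. The authors used RNA with an integrity number above 8, counted reads per gene with Subread 1.4.0 and featureCounts on build mm9 per the submitters' processing notes, and deposited a table of 14996 genes. It holds the raw count of each gene in each library and the RPM (reads scaled to the library total), which the authors computed from those counts. The strand setting is not given in the sources used here. Library totals were recovered from the ratio of count to RPM, and 99.18% to 99.21% of each total lay in the table.

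Counts were tested with edgeR 4.0.16 in R 4.3.3 (filterByExpr with a minimum count of 10 and a minimum total count of 15, TMM scaling, robust quasi-likelihood fit of the 8 male libraries, 2-sided), with p-values adjusted by Benjamini-Hochberg over all 14293 genes tested. The standard error is the log2 fold change divided by the square root of F. The interaction of diet and sex was fitted over all 19 libraries. The common biological coefficient of variation was 10.1%. Every 2 libraries of one diet were further apart than read sampling allows (chi-square over its degrees of freedom, 4.38 to 9.25 in 12 pairs), and the genes of the sex chromosomes matched the labelled sex in 8 of 8 libraries. P-values of the gene fits set the difference between diets against the spread between separate mice, estimated with information shared across genes. Library totals averaged 10398500 reads in HFD males and 9853780 reads in ND males (exact permutation test, p = 0.0857, two-sided, n = 4 each). The smallest p that the 70 divisions of this test allow is 0.0286. The scripts were tested on simulated data.

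The text names the 15 genes of smallest p per direction, the 10 with the largest fold in each direction among genes at an unadjusted p under 0.05 and a mean of at least 5 RPM, members of 70 gene lists, genes at an adjusted p under 0.05 in any alternative, and the 5 with the smallest interaction p. The members and lists were chosen with earlier results of these data known, and some list genes are named by the study. Results of a few list genes are not reported here. Alternatives were limma-voom (limma 3.58.1), the likelihood ratio and exact tests of edgeR, DESeq2 1.42.0, RLE, upper quartile and library total scaling, no filter, a filter of 1 CPM in 4 libraries, limma on log2 of RPM plus 1 or plus 0.1, a 4-group fit of 19 libraries, leaving out each mouse, and, chosen after seeing the data, leaving out F1065 and F1079 together. Promoter windows came from RefSeq (GRCm38.p6) and were matched by gene symbol, with no coordinates taken from mm9. Of the tested genes, 10699 had a window. Figures were drawn with matplotlib 3.10.9.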

Additional observations from a re-analysis of the deposited data

Results flagged for a closer look

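Single mice stood far from the other 3 of their group in 11 of 186 groups of 4 values examined (genes chosen for description and 11 list sums, by diet), by the gap to the nearest other mouse over the range of the 4 (Dixon's test at 95%), which chance alone reaches in about 1 of 20 groups. Among HFD males, F1065 was high for Jph1 (16 CPM, the others 13.2 to 13.4) and Rims1 (265 CPM, the others 195 to 204). HFD male A1095 was low for Kcna2 (94.4 CPM, the others 109 to 112), high for Sox21 (9.84 CPM, the others 7.99 to 8.22) and high for the choroid plexus sum (42.69 CPM, the others 21.56 to 24.86). HFD male F1145 was high for Hmgn1 (31.7 CPM, the others 31 to 31.1). Among ND males, F1131 was high for Irf7 (2.33 CPM, the others 1.52 to 1.57) and F1079 was low for Npy (46.9 CPM, the others 53.3 to 54.5). ND male F1080 was high for Itgax (1.75 CPM, the others 0.38 to 0.59) and for the erythrocyte sum (20.86 CPM, the others 3.705 to 5.112). ND male F1128 was high for Rpl21 (49.6 CPM, the others up to 24.7), a ribosomal protein gene with near-identical copies. Without F1128, Rpl21 had a log2 fold change of 0.89 with an adjusted p of 0.018 in edgeR's quasi-likelihood test, and over all 8 mice it was 0.52 ± 0.27 and did not pass.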

How the results depend on the processing

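The directions of the 206 named genes that were up- or down-regulated over all 8 males did not change in any alternative. These genes were chosen by their p in the same mice that each alternative reuses, so a kept direction was largely set in advance. The 601 up-regulated genes became 398 with limma on log2 of RPM plus 1 and 400 with RPM plus 0.1, while the 601 down-regulated became 878 and 874. Without F1065 and F1079 246 were up- and 288 down-regulated. Leaving out 1 mouse gave 337 to 853 up and 379 to 761 down. At an adjusted p under 0.05, the 0 genes of the quasi-likelihood test became 8 with the likelihood ratio test, 8 with the exact test, 5 with DESeq2, 1 with the 4-group fit (Klf4) and 0 to 2 when 1 mouse was left out, these being Sik1 without F1145, and Baiap2l1 and Rpl21 without F1128. The 423 genes with the higher log2 fold change in males became 273 with library total scaling, while the 355 with the lower became 505, and leaving out 1 mouse gave 295 to 677 higher and 253 to 483 lower. No paired analysis was possible because the labels give mouse names and no number shared between the diets. The causes of these changes were not tested. With 4 mice per diet, differences of genes read fewer than about 20 times per library, such as Car3 and Vmn2r87, rest on few reads. Other named genes fell below that number in some libraries. Among them, the lowest count was 15 reads for Irf7 and Rsad2, 9 for Ccl6, 7 for Ifi44, and 6 for Usp18 and Baiap2l1. It was 5 for Dgkk, 4 for Itgax, and 3 for Cst7 and Gabrq.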

Other observations

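Some gene groups that no comparison above describes held few members past the threshold. Of 25 imprinted genes Snhg14 was up-regulated and Usp29, Mirg, Nnat and Asb4 were down-regulated (-0.34, -0.40, -0.37 and -1.13). All 4 were highest in ND male F1079, and 22 of the 25 had a negative log2 fold change. Without F1079 Usp29 was -0.21 and Nnat -0.23, both still passing, and the number down ran from 2 (without F1065) to 10 (without F1131). Asb4 was no longer called without F1065, F1079 or F1080 (-1.02 to -0.81), Mirg without F1079 (-0.30) and Nnat without F1065 (-0.31). Of 23 endoplasmic reticulum stress and ATF4 target genes, Asns, Atf4 and Chac1 were up-regulated (0.31, 0.25 and 0.38) and 0 down-regulated. Asns, which makes asparagine, had 114, 140.1, 124 and 121 CPM in HFD males, against 91.9, 100.4, 116 and 94.5 CPM in ND males, with ND male F1128 above HFD male A1095. Atf4 was no longer called without F1065, F1079, F1131 or F1145 (0.18 to 0.23) and Chac1 without A1095, F1079 or F1131 (0.28 to 0.33). Without F1131 4 genes of this list were down-regulated, and without both F1065 and F1079 1 of 24 was up and 2 were down. Of 36 meningeal and collagen genes Col6a3 and Lama1 were down-regulated (-0.73 and -0.65) and 0 were up-regulated. Col6a3 was no longer called without F1080 (-0.44) and Lama1 without F1065, F1079, F1080 or F1145 (-0.60 to -0.50). The number down ran from 0 (without F1080) to 3 (without A1095, F1128 or F1131). Of 20 oligodendrocyte and myelin genes, 12 oligodendrocyte precursor genes and 22 glucocorticoid-responsive genes, 0 passed in either direction over all 8 mice, while without F1145 6 oligodendrocyte and myelin genes, 1 precursor gene and 2 glucocorticoid-responsive genes passed upward and without F1080 or F1145 1 glucocorticoid-responsive gene passed downward.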
